A study of Rattus norvegicus with 6 samples.

Results

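The genes for glucose uptake and the first steps of glycolysis were followed in rat myocardium after myocardial ischemia/reperfusion injury (MI/RI). The set was defined as a list of gene symbols, with no threshold on a measured value, and held 10 of the 28293 genes of the deposited table, which were Slc2a1, Slc2a4, Hk1, Hk2, Gpi, Pfkm, Pfkl, Pfkp, Pfkfb2 and Pfkfb3. All 10 were found, and all 10 passed the filter on low values, a mean of at least 0.5 FPKM (fragments scaled by transcript length and by library size) over the 6 samples. The 3 MI/RI samples came from wild-type male rats whose left anterior descending coronary artery was tied for 30 min and then released for 6 h before the heart was taken. The 3 sham samples, also from wild-type male rats, carry the treatment label Sham, and their titles give the same 30 min and 6 h. No gene was deleted and no drug is named in the labels of either group, and the part of the heart that was sampled (ischemic area, border or remote wall) is not stated in the sources used here. Total RNA was sequenced with a stranded library kit, and each sample is 1 bulk library, in which fewer cells of a type and less RNA per cell cannot be told apart. The labels number the samples of each group and do not say that each is a separate rat, so the p-values measure the spread between these samples.

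Glucose enters heart muscle through GLUT4 (Slc2a4), which insulin and contraction bring to the cell surface, and through GLUT1 (Slc2a1), which sits there constantly. A hexokinase (Hk1 or Hk2) traps the sugar as glucose 6-phosphate, glucose-6-phosphate isomerase (Gpi) turns it into fructose 6-phosphate, and phosphofructokinase-1 (PFK-1, built from Pfkm, Pfkl and Pfkp subunits) makes the committed step of glycolysis. The bifunctional PFK-2 enzymes (Pfkfb2 and Pfkfb3) make and remove fructose 2,6-bisphosphate, the strongest known activator of PFK-1. Pfkfb2 is the classical heart isoenzyme, which insulin signaling and AMPK activate by phosphorylation, and Pfkfb3 is the inducible one with high kinase activity.

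The libraries differed in make-up as well as in these genes. The 13 mitochondrially encoded mRNAs took 80.1 to 86.2% of the summed FPKM in the sham samples and 61.8 to 71.5% in the MI/RI samples, without overlap, and the median log2 fold change of the 10942 genes tested was 0.29. The summed level of the 6 cardiomyocyte markers measured (Myh6, Tnnt2, Tnni3, Actc1, Myl2 and Ryr2, none at 0 in any sample) ranged from 3219 to 10510 FPKM in sham and from 21170 to 30371 FPKM in MI/RI, and 5 of the 6 were called higher, beside 25.5% of all genes tested. With the mitochondrial mRNAs left out of the scaling, 4 of the 6 were called higher, beside 7.06% of all genes. The part of both shifts in the results on the glucose genes was not tested, and the values under other scalings stand beside them. The 6 endothelial markers measured summed to 160.3 to 214.9 FPKM in sham and 157.9 to 202.4 FPKM in MI/RI, and none was called by limma (median log2 fold change 0.011, with 1 higher and 1 lower at an unadjusted p under 0.05). This too depended on the scaling. With the mitochondrial mRNAs left out of the scaling, 3 of the 6 were called lower (median -0.77), beside 25.9% of all genes tested. After quantile normalization 5 were called lower (median -0.90), beside 14.2%. The fast skeletal muscle gene Myh4 was at 0 in all 6 samples. Sample profiles had Spearman correlations of 0.928 to 0.962 within the groups and 0.791 to 0.900 between them. The depth is unknown, since the table holds no counts.

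Of the 10 genes, 7 rose after MI/RI, 1 fell and 2 did not pass the test (limma on log2(FPKM + 0.1), Benjamini-Hochberg adjusted p under 0.05 over all genes tested). The 7 that rose were both glucose transporters, both hexokinases, Gpi and the PFK-1 subunits Pfkm and Pfkl, and the one that fell was Pfkfb2. Hk2 counts among the 7 although it passed the filter on low values only through its MI/RI values, so its call is not independent of that filter. Among all 10942 genes tested, 25.5% were called higher and 7.36% lower. The median log2 fold change of the 10 genes was 1.62 against 0.29 for all genes tested. In FPKM the 3 sham and the 3 MI/RI values did not overlap for any of the 10, and each gave p = 0.1 in a two-sided exact permutation test, the smallest p that 3 samples against 3 allow. The share of all genes without overlap was not counted, so this is not shown to be particular to the 10. Of all genes tested, 65.3% had a fold change above 0. MI/RI replicate 1 was the highest of its group for 8 of the 10.

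The direction of part of the set depended on the scaling. Above 0 stood 9 of the 10 fold changes in FPKM, 7 after each sample was rescaled without the mitochondrial mRNAs, and 2 after centring on the mean of the cardiomyocyte markers. After rescaling without the mitochondrial mRNAs, where the median of all genes moved to -0.48 on the log2 scale, Slc2a1, Slc2a4, Hk1, Hk2 and Pfkm were called higher and Pfkfb2 lower, and the groups overlapped for Pfkl, Pfkp and Pfkfb3. Of all genes tested under that scaling, 7.06% were called higher and 25.9% lower. Pfkfb2 was lower under every scaling tried.

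**Figure D1:**
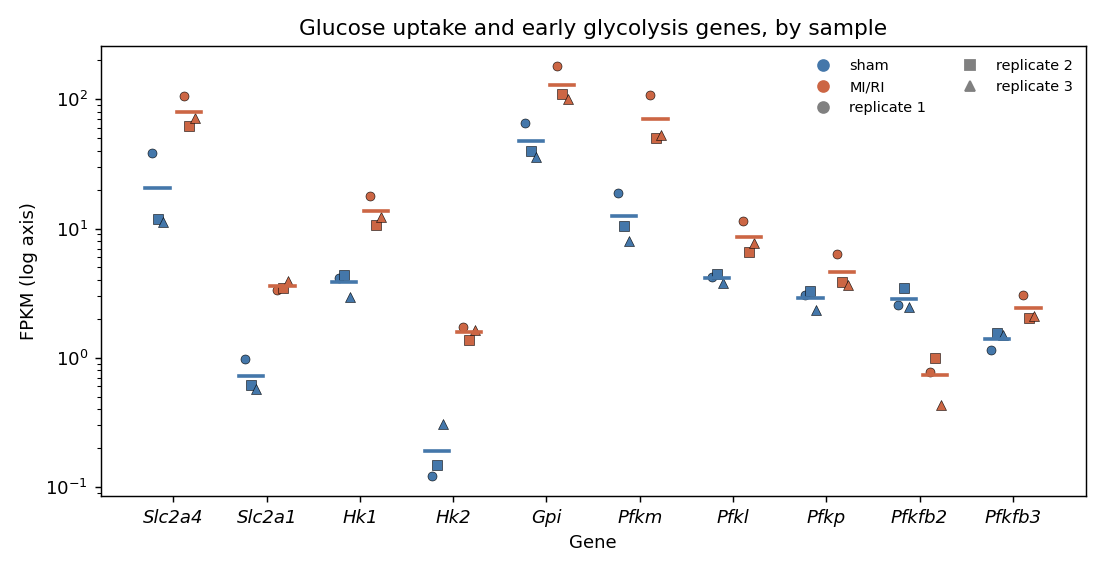
FPKM of the 10 genes in each sample on a log axis, sham in blue and MI/RI in orange, with a symbol for each replicate number and a line at the group mean. For Pfkfb2 all MI/RI values (0.432 to 0.999 FPKM) lie below all sham values (2.49 to 3.46 FPKM), and for the other 9 genes they lie above.

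GLUT4 was the main transporter transcript of this tissue. Slc2a4 (ENSRNOG00000017226) stood at 38.6, 11.8 and 11.2 FPKM in sham replicates 1, 2 and 3 and at 106.7, 62.7 and 71.7 FPKM in MI/RI replicates 1, 2 and 3. Sham replicate 1 stood well above the other sham samples, yet below every MI/RI sample. The mean went from 20.6 ± 15.7 to 80.3 ± 23.3 FPKM (SD, n = 3 each), 3.9-fold, and the log2 fold change was 2.17 (SE 0.45, limma adjusted p = 0.0074). Without sham replicate 1 it was 2.75.

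GLUT1 was scarce in sham myocardium and rose by a like factor. Slc2a1 (ENSRNOG00000007284) read 0.981, 0.612 and 0.573 FPKM in sham and 3.33, 3.47 and 3.93 FPKM in MI/RI. The MI/RI values were close together, and the lowest of them was far above the highest sham value. The mean went from 0.722 ± 0.225 to 3.58 ± 0.311 FPKM, 4.95-fold (log2 fold change 2.19, SE 0.26, limma adjusted p = 0.0014). The proportion of the 2 transporters stayed near its sham value: Slc2a4 made up 95.9 ± 1.39% of their summed FPKM in sham and 95.5 ± 1.27% in MI/RI, with overlap. The within-sample log2 ratio of Slc2a4 to Slc2a1 was 4.44 ± 0.63 in sham and 4.42 ± 0.47 in MI/RI, a difference of -0.018 (exact permutation p = 1.0, 1.0 after adjustment over the 5 ratios tested), and 0.69 with a pseudocount of 1, so that with this spread changes of either sign remain possible.

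Among the other glucose transporters measured, the neuronal type GLUT3 (Slc2a3) was above GLUT1 in sham, at 2.31 ± 0.611 FPKM, and stood at 2.30 ± 0.593 FPKM in MI/RI (log2 fold change -0.0021, SE 0.28, limma adjusted p = 1.0). Of the 12 paralogs found of all 4 enzyme and transporter families, 6 passed the filter on low values and none was called by limma in either direction (1 was lower at an unadjusted p under 0.05), with a median log2 fold change of -0.056. With the mitochondrial mRNAs left out of the scaling, 2 of the 6 were called lower, beside 25.9% of all genes tested. The tested ones were Slc2a3, Slc2a6, Slc2a8, Slc2a12, Adpgk and Pfkfb4.

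The 250 bases before the start of Slc2a1 are shown because this gene had the lowest adjusted p-value of the 10 and because its window held the most matches to the letters ACGTG or GCGTG, the core of the hypoxia response element. Capitals mark a match on either strand (CACGT and CACGC are the same letters read on the other strand), and the sequence is from RefSeq, build GRCr8, chr5:138002272-138002521, plus strand.
Slc2a1: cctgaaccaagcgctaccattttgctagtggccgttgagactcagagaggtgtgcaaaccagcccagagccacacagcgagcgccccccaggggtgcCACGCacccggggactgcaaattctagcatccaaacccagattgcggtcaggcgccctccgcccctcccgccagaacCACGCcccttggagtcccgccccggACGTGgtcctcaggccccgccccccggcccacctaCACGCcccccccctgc
It held 4 matches, at 153, 76, 51 and 16 bases before the start. At least 1 match stood in 36.7% of all 33469 promoter windows of this length, and in 6 of the 10 windows of the 9 genes that could be matched (Hk1 has 2). A match is a run of letters and was not tested as a binding site here.

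Hk1 was the bulk of the hexokinase transcripts, and both hexokinase genes rose. Hk1 (ENSRNOG00000046891), the constitutive isoenzyme, read 4.16, 4.35 and 2.96 FPKM in sham and 17.9, 10.6 and 12.2 FPKM in MI/RI. Its mean went from 3.82 ± 0.754 to 13.6 ± 3.82 FPKM, 3.55-fold, with a log2 fold change of 1.78 (SE 0.27, limma adjusted p = 0.0032). Hk2 (ENSRNOG00000006116), the insulin-responsive and inducible isoenzyme, read 0.122, 0.147 and 0.305 FPKM in sham and 1.73, 1.38 and 1.65 FPKM in MI/RI. All sham values of Hk2 were low, below the filter of 0.5 FPKM, so the gene passed the filter through its MI/RI values. Its mean went from 0.191 ± 0.0994 to 1.58 ± 0.182 FPKM, 8.28-fold, and the log2 fold change, which the added 0.1 FPKM holds down, was 2.58 (SE 0.36, limma adjusted p = 0.0027) and 1.12 with a pseudocount of 1.

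Hk2 nevertheless stayed the minor transcript. Of the summed FPKM of Hk1, Hk2 and Hk3, Hk1 made up 91.9 ± 3.85% in sham and 88.9 ± 1.94% in MI/RI, and Hk2 4.98 ± 3.50% and 10.7 ± 1.64%, both with overlap. The log2 ratio of Hk2 to Hk1 was -3.78 ± 0.75 in sham and -2.99 ± 0.27 in MI/RI, a difference of 0.79 (exact permutation p = 0.2, adjusted over the 5 ratios 0.25), which turned to -0.46 with a pseudocount of 1. Hk3, a form of white blood cells, was near 0 throughout, at 0.166, 0.102 and 0.120 FPKM in sham and 0.0346, 0 and 0.146 FPKM in MI/RI, and was not tested by limma (exact permutation p = 0.3). The neutrophil and monocyte markers summed to 52.3 to 67.4 FPKM in sham and 78.7 to 143.9 FPKM in MI/RI. The voltage-dependent anion channels, to which Hk1 and Hk2 bind on the mitochondrial outer membrane, rose in all 3 forms: Vdac1 by 2.02, Vdac2 by 1.35 and Vdac3 by 1.17 on the log2 scale (SE 0.40, 0.30 and 0.27, limma adjusted p = 0.0067, 0.010 and 0.012), of which 1 was still called after rescaling without the mitochondrial mRNAs. Of all genes tested, 25.5% were called higher in FPKM and 7.06% after that rescaling.

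The window before Hk2 (RefSeq, GRCr8, chr4:116841276-116841525, minus strand, written 5′ to 3′ along the gene) is shown beside that of Slc2a1 because both genes were low in sham and rose, and it held no match.
Hk2: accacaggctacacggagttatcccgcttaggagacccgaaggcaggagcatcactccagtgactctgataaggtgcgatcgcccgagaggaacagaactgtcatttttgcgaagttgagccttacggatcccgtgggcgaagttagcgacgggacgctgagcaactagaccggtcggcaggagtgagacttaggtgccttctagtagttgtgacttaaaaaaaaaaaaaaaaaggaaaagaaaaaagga
That these letters were not found says only that they are not in this window.

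**Figure D2:**
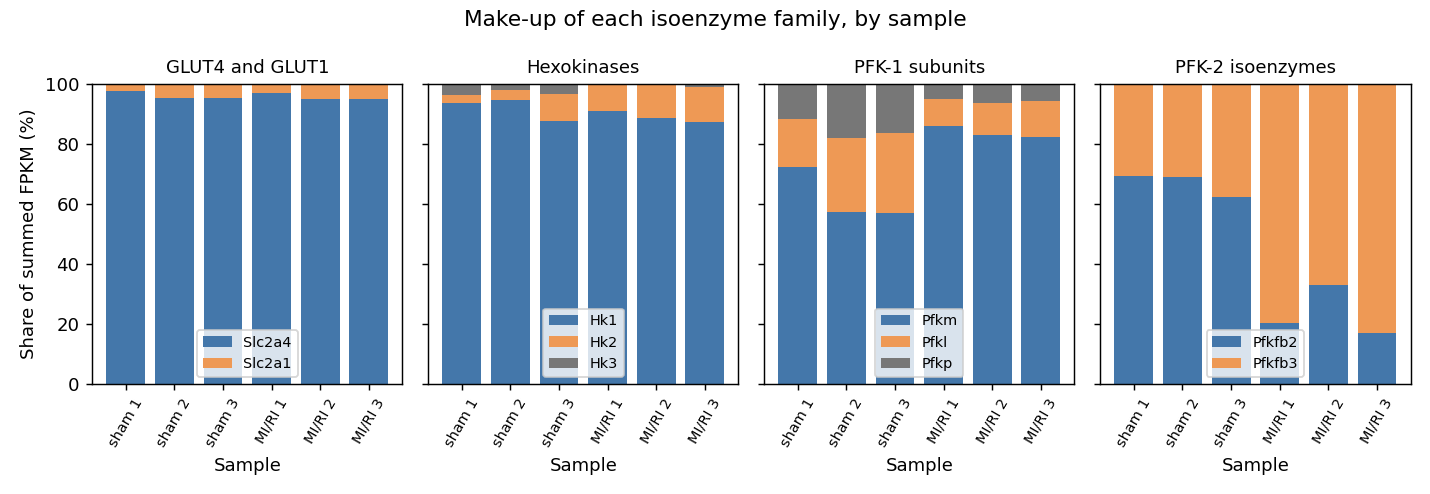
Share of the summed FPKM (%) taken by each isoenzyme of 4 families in each of the 6 samples. Pfkfb3 takes 30.8 to 37.7% of the PFK-2 sum in sham and 67.1 to 83.1% in MI/RI, Pfkm gains within PFK-1, and the transporter and hexokinase bars overlap between groups except for the small Hk3 share.

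Gpi, which joins the hexokinase and PFK-1 steps, was the most abundant transcript of the set in both groups. Gpi (ENSRNOG00000023150) read 65.9, 39.9 and 36.0 FPKM in sham and 179.8, 109.2 and 100.3 FPKM in MI/RI. Replicate 1 was the highest of both groups, and no sham sample reached an MI/RI sample. The mean went from 47.3 ± 16.3 to 129.8 ± 43.6 FPKM, 2.74-fold (log2 fold change 1.46, SE 0.32, limma adjusted p = 0.0090). Its log2 fold change was 0.67 after rescaling without the mitochondrial mRNAs (limma adjusted p = 0.056), which did not pass.

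The PFK-1 subunits moved unequally, the muscle subunit by most. Pfkm (ENSRNOG00000057988) read 18.8, 10.5 and 8.06 FPKM in sham and 108.4, 50.2 and 53.3 FPKM in MI/RI. MI/RI replicate 1 stood well above the other MI/RI samples, and each of the 3 was above every sham sample. The mean went from 12.4 ± 5.63 to 70.6 ± 32.8 FPKM, 5.68-fold (log2 fold change 2.49, SE 0.38, limma adjusted p = 0.0033).

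The liver-type subunit Pfkl (ENSRNOG00000001214) read 4.23, 4.48 and 3.79 FPKM in sham and 11.5, 6.62 and 7.78 FPKM in MI/RI. Its log2 fold change was 0.997 (SE 0.25, limma adjusted p = 0.015), the mean going from 4.17 ± 0.346 to 8.62 ± 2.53 FPKM, and the call was lost without sham replicate 3 (0.93, limma adjusted p = 0.059). With the mitochondrial mRNAs left out it was 0.23 (limma adjusted p = 0.54). The platelet-type subunit Pfkp (ENSRNOG00000017163) read 3.05, 3.31 and 2.34 FPKM in sham and 6.33, 3.87 and 3.66 FPKM in MI/RI. It did not pass the test, with a log2 fold change of 0.62 (SE 0.27, limma adjusted p = 0.10), and stood at -0.14 after the rescaling. The values of Pfkl and Pfkp therefore did not overlap between groups in FPKM and did overlap once the mitochondrial mRNAs were left out.

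Within PFK-1 the proportions shifted to the muscle subunit, a comparison that no rescaling of a whole library can move. Relative to the cardiomyocyte markers, Pfkm differed by 0.27 with overlap, and Pfkl and Pfkp by -1.22 and -1.60 without overlap. All 3 lay above the median of all genes tested on that scale, -1.93, where 80.7% of genes were called lower. The part of the marker shift in these proportions was not tested. Pfkm took 72.1, 57.3 and 56.8% of the summed PFK-1 FPKM in sham and 85.9, 82.7 and 82.3% in MI/RI (62.1 ± 8.67 and 83.6 ± 1.96%). Pfkl went from 22.5 ± 5.54 to 10.7 ± 1.48% and Pfkp from 15.4 ± 3.35 to 5.68 ± 0.676%, and none of the 3 shares overlapped between the groups. The log2 ratio of Pfkl to Pfkm was -1.47 ± 0.58 in sham and -2.96 ± 0.24 in MI/RI, a difference of -1.497, and that of Pfkp to Pfkm was -1.99 ± 0.52 and -3.86 ± 0.21, a difference of -1.87. Each had an exact permutation p of 0.1, the smallest possible (0.17 after adjustment over the 5 ratios). The PFK-1 sum was 14.2 to 26.1 FPKM in sham and 60.7 to 126.2 FPKM in MI/RI.

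**Figure D3:**
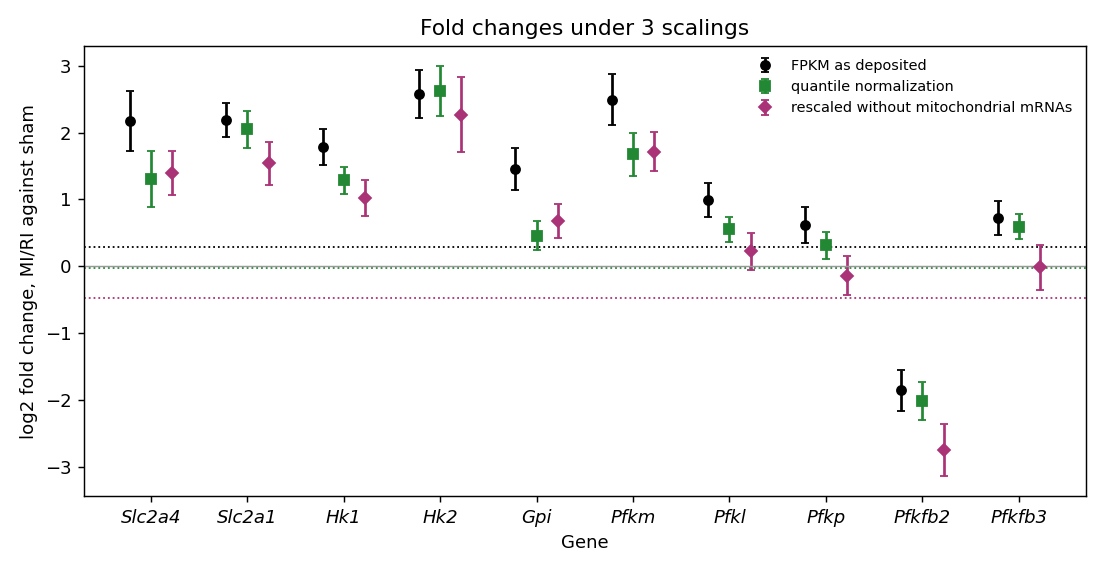
Log2 fold change (MI/RI against sham) with its standard error for the 10 genes under 3 scalings, with a dotted line at the median of all genes tested under each. Slc2a4, Slc2a1, Hk1, Hk2 and Pfkm lie above 0 and Pfkfb2 below it under all 3, whereas Pfkp and Pfkfb3 go from 0.62 and 0.73 in FPKM to -0.14 and -0.017 after rescaling without the mitochondrial mRNAs.

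Pfkfb2 was the one gene of the set that fell. Pfkfb2 (ENSRNOG00000004162) read 2.56, 3.46 and 2.49 FPKM in sham and 0.777, 0.999 and 0.432 FPKM in MI/RI. The highest MI/RI value was below 1 FPKM and the lowest sham value above 2 FPKM. The mean went from 2.83 ± 0.539 to 0.736 ± 0.286 FPKM, a ratio of 0.26, and the log2 fold change was -1.86 (SE 0.31, limma adjusted p = 0.0039). It was called lower under each of the 17 alternatives in which it was tested, with log2 fold changes from -4.08 (centring on the cardiomyocyte markers, where the median of all genes was -1.93) to -1.15 and adjusted p up to 0.027 (limma). In the rescaling without the mitochondrial mRNAs its log2 fold change was -2.75 (limma adjusted p = 0.00062).

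Pfkfb3 (ENSRNOG00000018911) read 1.14, 1.57 and 1.51 FPKM in sham and 3.07, 2.04 and 2.12 FPKM in MI/RI. Its mean was 1.40 ± 0.230 in sham and 2.41 ± 0.575 FPKM in MI/RI, 1.72-fold, and the log2 fold change of 0.73 (SE 0.25) missed the threshold (limma adjusted p = 0.051). It was called higher under 3 of the 17 alternatives, stood at -0.017 (limma adjusted p = 0.97) after rescaling without the mitochondrial mRNAs, and was called lower after centring on the cardiomyocyte markers (-1.49). Under that centring 80.7% of all genes tested were called lower, and Pfkfb3 lay above their median of -1.93. Its direction therefore depended on the scaling.

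The 2 PFK-2 transcripts changed places. Pfkfb3 made up 30.8, 31.2 and 37.7% of the sum of both in sham and 79.8, 67.1 and 83.1% in MI/RI. The within-sample log2 ratio of Pfkfb3 to Pfkfb2 was -1.10, -1.10 and -0.69 in sham and 1.86, 0.96 and 2.06 in MI/RI. It was negative in all 3 sham samples and positive in all 3 MI/RI samples. The difference of 2.59 was the largest of the 5 ratios (exact permutation p = 0.1, the smallest possible, 0.17 after adjustment). The sum of both was 3.70, 5.02 and 3.997 FPKM in sham and 3.85, 3.04 and 2.55 FPKM in MI/RI, with overlap. Pfkfb4, the remaining isoenzyme tested, stood at 0.582 ± 0.170 and 0.522 ± 0.0679 FPKM (log2 fold change -0.11, limma adjusted p = 0.83).

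The windows before the starts of the 2 PFK-2 genes are shown side by side because their transcripts went apart (RefSeq, GRCr8, Pfkfb2 at chr13:44726972-44727221, minus strand, and Pfkfb3 at chr17:71944683-71944932, plus strand), with capitals marking ACGTG or GCGTG on either strand as above.
Pfkfb2: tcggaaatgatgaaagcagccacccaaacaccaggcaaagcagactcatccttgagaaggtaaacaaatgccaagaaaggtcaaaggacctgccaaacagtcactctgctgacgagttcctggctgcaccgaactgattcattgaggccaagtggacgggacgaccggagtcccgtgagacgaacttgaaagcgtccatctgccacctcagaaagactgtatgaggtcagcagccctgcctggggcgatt
Pfkfb3: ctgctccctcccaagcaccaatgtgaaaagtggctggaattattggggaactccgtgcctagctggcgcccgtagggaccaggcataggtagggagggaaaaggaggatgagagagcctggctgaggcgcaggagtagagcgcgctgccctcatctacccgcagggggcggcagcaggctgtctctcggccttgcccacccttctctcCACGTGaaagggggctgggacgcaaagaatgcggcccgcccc
The Pfkfb3 window held the palindrome CACGTG, 42 bases before the start, which counts as 2 overlapping matches, 1 on each strand, and which is also the E-box read by MYC. The Pfkfb2 window held none. ACGTG alone stood in 16.6% of all windows and in 4 of the 10 windows of the set. The Sp1-type letters GGGCGG, searched on both strands, stood in 30.5% of all windows and in 6 of the 10, those of Pfkfb3 and Slc2a1 included and those of Pfkfb2 and Hk2 not.

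Genes that the study or textbooks place upstream of Pfkfb3 were measured beside it. Of 7 measured, 4 rose and none fell (limma, also none at an unadjusted p under 0.05), with a median log2 fold change of 1.10. Beside them, 25.5% of all genes tested were called higher and 7.36% lower. Myc, the transcription factor that drives many glycolytic genes, rose by 3.18 (SE 0.27, limma adjusted p = 0.00032), from 1.31 ± 0.529 to 12.1 ± 0.774 FPKM. Hspb1, the small heat shock protein Hsp27, rose by 2.18 (SE 0.28, limma adjusted p = 0.0022), from 71.3 ± 21.8 to 318.2 ± 66.7 FPKM. The NF-kappaB subunit genes Nfkb1 and Rela rose by 1.57 (SE 0.25, limma adjusted p = 0.0035) and 1.10 (SE 0.21, limma adjusted p = 0.0057). Of the 7, 2 were called higher and 1 lower after rescaling without the mitochondrial mRNAs, beside 7.06% and 25.9% of all genes tested.

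Levels are per length in FPKM, so the genes can also be ordered against each other within a group. In sham the order of means ran Gpi, Slc2a4, Pfkm, Pfkl, Hk1, Pfkp, Pfkfb2, Pfkfb3, Slc2a1 and Hk2. The values overlapped between each neighbouring pair from Gpi to Pfkm and from Pfkl to Pfkfb2, although Gpi did not overlap Pfkm. Within single sham samples the order of these neighbours held in all 3, except that Pfkp was above Pfkfb2 in only 1. In MI/RI it ran Gpi, Slc2a4, Pfkm, Hk1, Pfkl, Pfkp, Slc2a1, Pfkfb3, Hk2 and Pfkfb2. There the values overlapped between each neighbouring pair from Gpi to Pfkm, between Hk1 and Pfkl and between Pfkp and Slc2a1. Within single MI/RI samples Gpi was above Slc2a4 and Hk1 above Pfkl in all 3. Slc2a4 was above Pfkm, and Pfkp above Slc2a1, in 2. Pfkfb2 thus went from seventh to last, below Hk2, and the means spanned 0.191 to 47.3 FPKM in sham and 0.736 to 129.8 FPKM in MI/RI.

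The genes that carry the signal to GLUT4 were called at shares near those of all genes. Of 29 genes of insulin signaling, AMPK and GLUT4 traffic, 23 were tested, 8 rose and 2 fell, beside 25.5% and 7.36% of all genes tested, with a median log2 fold change of 0.46. The insulin receptor substrate gene Irs2 rose by 1.59 (SE 0.37, limma adjusted p = 0.011), from 0.755 ± 0.351 to 2.40 ± 0.786 FPKM. The kinase genes Akt1 and Akt2, which act below the insulin receptor, rose by 1.13 (SE 0.28) and 1.07 (SE 0.27), and Stk11, which encodes the AMPK kinase LKB1, by 1.09 (SE 0.25; limma adjusted p = 0.014, 0.015 and 0.011). Tbc1d4, the AKT substrate AS160 that holds GLUT4 vesicles inside the cell, fell from 2.60 ± 0.135 to 1.502 ± 0.220 FPKM (log2 fold change -0.76, SE 0.22, limma adjusted p = 0.025, and 0.038 to 0.082 when each sample was left out in turn). Pik3ca, a catalytic subunit of PI3-kinase, fell by 0.68 (SE 0.23, limma adjusted p = 0.043, and 0.058 with the replicate number as a block), a call that was lost when any 1 of the 6 samples was left out (adjusted p = 0.07 to 0.11). Txnip, the thioredoxin-interacting protein that restrains glucose uptake, stood at 173.8 ± 39.5 and 155.7 ± 13.8 FPKM (log2 fold change -0.14, limma adjusted p = 0.70). After rescaling without the mitochondrial mRNAs none of the 23 was called higher by limma (1 at an unadjusted p under 0.05) and 5 were called lower, a share near the 25.9% of all genes. Leaving out each sample in turn gave 2 to 6 genes of the list higher, the fewest without sham replicate 3, and 0 to 1 lower.

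On the routes that leave or feed the upper pathway, genes of glycogen breakdown and of glycogen synthesis both rose. Of 31 genes of glycogen metabolism, the pentose phosphate, hexosamine and polyol pathways and the reverse of PFK-1, 27 were tested, 15 rose and none fell (limma, also none at an unadjusted p under 0.05, median log2 fold change 1.04). Over all genes tested, 25.5% were called higher and 7.36% lower. The muscle glycogen phosphorylase gene Pygm, which releases glucose 1-phosphate, rose by 2.22 (SE 0.42, limma adjusted p = 0.0054), from 25.6 ± 11.4 to 123.7 ± 69.7 FPKM. Pgm1, which feeds that product to glucose 6-phosphate, rose by 1.77 (SE 0.34, limma adjusted p = 0.0062), and Gys1, the muscle glycogen synthase gene, by 1.85 (SE 0.40, limma adjusted p = 0.0089). Gfpt2, an isoform of the first enzyme of the hexosamine pathway, rose by 2.20 (SE 0.35, limma adjusted p = 0.0035) and Uap1, which makes UDP-N-acetylglucosamine, by 2.09 (SE 0.30, limma adjusted p = 0.0029). Akr1b1, the aldose reductase of the polyol pathway, rose by 1.95 (SE 0.31, limma adjusted p = 0.0035). Fbp2, the muscle fructose bisphosphatase that reverses the PFK-1 step, stood at 0.656 ± 0.259 and 0.537 ± 0.311 FPKM (log2 fold change -0.29, limma adjusted p = 0.64). After rescaling without the mitochondrial mRNAs 6 of the 27 were called higher and 4 lower, beside 7.06% and 25.9% of all genes tested.

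Most genes of the steps after PFK-1 rose as well. Of 16 genes from aldolase to lactate dehydrogenase, 13 were tested, 10 rose and none fell (limma, also none at an unadjusted p under 0.05), with a median log2 fold change of 1.79 beside the 1.62 of the 10 upper genes. The shares of all genes tested were 25.5% higher and 7.36% lower. Ldhb, the heart-type lactate dehydrogenase gene, rose by 2.40 (SE 0.46, limma adjusted p = 0.0058) and Ldha, the muscle type that favours lactate formation, by 2.19 (SE 0.30, limma adjusted p = 0.0026), from 36.3 ± 6.17 to 172.3 ± 68.5 FPKM. Pgam2, the muscle phosphoglycerate mutase gene, rose by 2.27 (SE 0.45, limma adjusted p = 0.0066). Aldoa, the muscle aldolase gene, rose by 2.49 (SE 0.46, limma adjusted p = 0.0053), at a low level of 0.409 ± 0.0211 and 3.37 ± 2.72 FPKM, passed the filter through its MI/RI values, and is uncertain where its reads are shared with near-identical copies. After rescaling without the mitochondrial mRNAs 9 of the 13 were called higher (7.06% of all genes), and after quantile normalization 5 (13.2% of all genes).

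**Figure D4:**
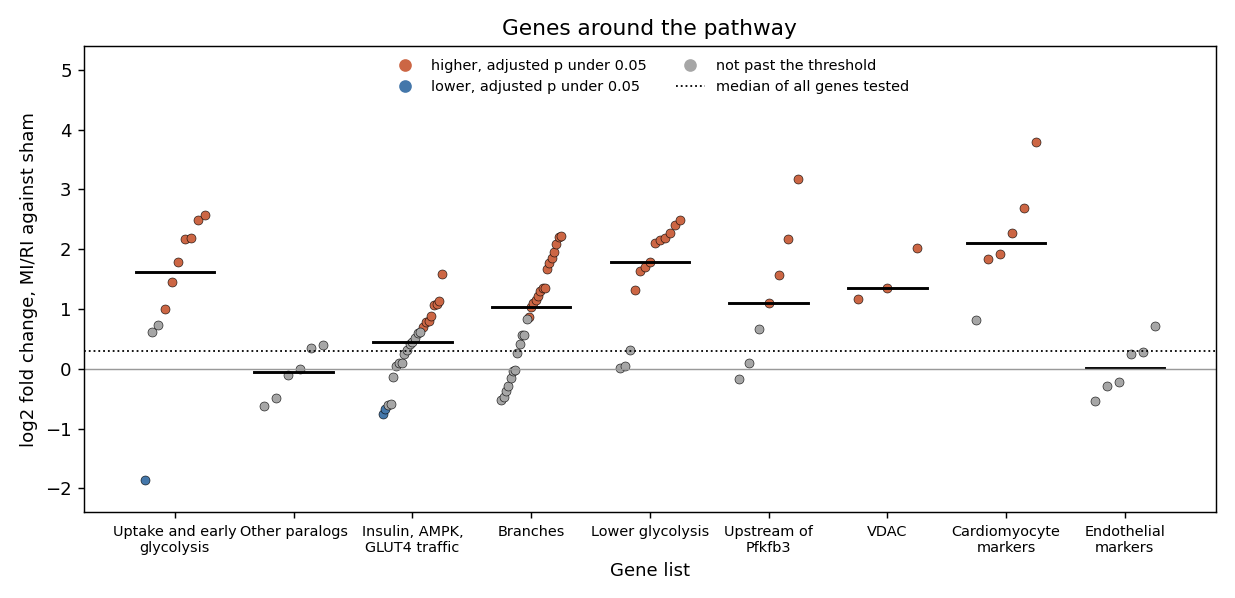
Log2 fold change (MI/RI against sham) of each tested gene of 9 lists, orange where called higher, blue where called lower and grey where neither, with a bar at the median of each list and a dotted line at the median of all genes tested (0.29). The 10 upper genes have a median of 1.62 with Pfkfb2 alone at the bottom, the lower steps 1.79, the cardiomyocyte markers 2.10 and the endothelial markers 0.011.

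Set against the cardiomyocyte markers of the same sample, the 10 genes stood in a table in which most genes were lower: 80.7% of all genes tested were called lower and 0.329% higher, with a median log2 fold change of -1.93. Relative to the mean log2 level of these markers, the differences between MI/RI and sham were -0.029 for Slc2a1, -0.048 for Slc2a4, -0.44 for Hk1, 0.36 for Hk2 and 0.27 for Pfkm, and each of these overlapped between the groups. The differences were -0.76 for Gpi, -1.22 for Pfkl, -1.60 for Pfkp, -1.49 for Pfkfb3 and -4.08 for Pfkfb2, without overlap, all lower in MI/RI. In the limma fit on these values none of the 10 was called higher, also none at an unadjusted p under 0.05, and 4 were called lower, which were Pfkl, Pfkp, Pfkfb2 and Pfkfb3. Of these, Pfkfb2 alone lay below the median of all genes. The markers' mean log2 level itself was 9.31, 8.18 and 7.75 in sham and 11.04, 10.44 and 10.41 in MI/RI, and among the sham samples it was highest in replicate 1. Of the 10 genes, 4 were highest in sham replicate 1 (Slc2a1, Slc2a4, Gpi and Pfkm), 5 in sham replicate 2 and 1 in sham replicate 3. The part of the marker shift in the rise of the 7 genes was not tested.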

How the data were processed

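Bulk RNA from the myocardium of 3 sham and 3 MI/RI samples was analysed. The authors deposited 1 table of FPKM values for each gene and sample, already divided by gene length and library size. The submitters' processing notes name STAR and HTSeq, without versions, and the genome build and annotation are not given in the sources used here. The 10 genes and all lists were chosen with earlier results of these data known.

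The 6 columns were matched to the samples by name. Rows with the same symbol were summed, which left 28293 genes of 30452 rows (7092 rows had no symbol). No values of the authors' own comparisons were used. The named genes were the 10 members, Hk3, the called genes of each list with the most positive (up to 4) and most negative (up to 4) log2 fold changes, and Pgm1, Txnip, Pygm, Gys1, Fbp2 and Ldha. Slc2a3, Pfkfb4 and the other paralogs were named after their values were seen, and 1 gene that the rule covers is not reported here.

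Log2(FPKM + 0.1) of the 10942 genes with a mean of at least 0.5 FPKM was fitted with limma 3.58.1 in R 4.3.3 (lmFit, then eBayes allowing for an intensity trend), and p-values were adjusted by Benjamini-Hochberg over these genes at a threshold of 0.05. Fold changes are on this scale, which understates those of low genes. The fit was tested on simulated data first. Single values and within-sample ratios were compared by two-sided exact permutation tests. Marker lists for fibroblasts, smooth muscle, red blood cells, lymphocytes, adipocytes and skeletal muscle were measured as well. The alternatives were other pseudocounts, filters, scalings, fits and treatment of repeated symbols, and leaving out each sample.

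The replicate numbers come from the sample titles. The labels do not say that same-numbered sham and MI/RI samples belong together. Their deviations from the group means correlated at 0.203, 0.117 and 0.118, but sham 3 with MI/RI 2 gave 0.120. These values do not settle whether the numbers pair the samples, so a blocked fit was run beside the reported one. Promoter windows came from the RefSeq table of GRCr8, which matched 9 of the 10 genes. Slc2a4 was not matched.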

Additional observations from a re-analysis of the deposited data

How the results depend on the processing

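The direction of every one of the 10 genes held when any 1 sample was left out, under other pseudocounts, after TPM rescaling, median centring and quantile normalization, and with the replicate block. The number called higher was 6 to 7 and the number called lower 1 when each sample was left out in turn. With the replicate block 7 were called higher and 1 lower, and of the named genes only Pik3ca lost its call. Centring on the cardiomyocyte markers left 0 called higher and 4 lower, and a mean of at least 5 FPKM left 5 genes tested, 5 higher and 0 lower. Quantile normalization ended the calls of Slc2a4 (1.31, limma adjusted p = 0.051), Gpi (0.46, 0.14) and Pfkl (0.55, 0.055) and called Pfkfb3 higher (0.59, 0.048), as did a pseudocount of 0.01 (adjusted p = 0.049) and TPM (0.030). Over all genes, 77.6% of calls were higher in FPKM, 56.5% after median centring, 48.0% after quantile normalization, 21.4% after rescaling without the mitochondrial mRNAs, 0.406% after centring on the cardiomyocyte markers and 91.9% with a mean of at least 5 FPKM. Leaving out each sample gave 1528 to 2557 genes higher and 309 to 881 lower, beside 2790 and 805 with all 6, and the insulin and GLUT4 list then had 2 to 6 genes higher. Of 620 comparisons of 35 named genes with an alternative, 540 kept direction and side of the threshold, 46 lost the call, 7 gained one and 27 turned. Centring on the cardiomyocyte markers turned Slc2a1 (-0.029), Slc2a4 (-0.048), Hk1 (-0.44), Gpi (-0.76), Pfkl (-1.22), Pfkp (-1.60), Pfkfb3 (-1.49), Irs2 (-0.63), Akt1 (-1.09), Stk11 (-1.13), Akt2 (-1.15), Gfpt2 (-0.016), Uap1 (-0.13), Akr1b1 (-0.27), Ldha (-0.031), Hspb1 (-0.042), Nfkb1 (-0.65), Rela (-1.12), Vdac1 (-0.20), Vdac2 (-0.87), Vdac3 (-1.05), Pgm1 (-0.45) and Gys1 (-0.37). Rescaling without the mitochondrial mRNAs turned Pfkp (-0.14) and Pfkfb3 (-0.017), and Txnip turned with TPM (0.060) and without sham replicate 2, within a range of -0.30 to 0.027 when each sample was left out. A pseudocount of 1 moved the differences in log2 ratio of Hk2 to Hk1 to -0.46, of Slc2a4 to Slc2a1 to 0.69 and of Pfkfb3 to Pfkfb2 to 1.64, and quantile normalization moved those of Slc2a4 to Slc2a1 to -0.74 and of Pfkp to Pfkm to -1.37. The causes of these moves were not tested.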

Other observations

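Other cell types were measured beside the glucose genes. Of 7 fibroblast markers 2 were called higher (limma, median log2 fold change 0.57), with sums of 420.1 to 580.9 FPKM in sham and 605.0 to 669.3 FPKM in MI/RI. That count is near the 25.5% of all genes tested that were called higher. After rescaling without the mitochondrial mRNAs 0 were called higher and 2 lower, beside 7.06% and 25.9% of all genes. Of the 6 neutrophil and monocyte markers tested, 3 were called higher in FPKM (median 1.31), beside the same 25.5%, and 1 after that rescaling. The 4 smooth muscle, 2 red blood cell and 2 lymphocyte markers tested had medians of 0.66, -0.014 and -0.59, and none was called by limma (also none at an unadjusted p under 0.05). Of the skeletal muscle genes measured, only Ckm, which heart muscle also makes, passed the filter on low values, and it rose by 2.68 (SE 0.50, limma adjusted p = 0.0056), while Myh2 and Actn3 were at 0 in 2 and 3 of the 6 samples. Adipoq, Plin1, Cidec and Lep, the adipocyte markers, were at 0 in 2, 4, 1 and 2 of the 6 samples and none passed the filter.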
